A study of Mus musculus with 5 samples.

Results

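The T cell receptor complex and its first signalling steps were followed through 10 genes in whole blood of 2 mouse crosses. They were Cd3d, Cd3e, Cd3g, Cd247, Lck, Zap70, Lat, Cd2, Cd5 and Thy1. A probe set, the array's unit of measurement for a transcript, was taken when the platform annotation gave it exactly 1 gene symbol and that symbol was on the list. This found 14 probe sets for 9 of the 10 genes, out of 45101 probe sets on the array. Lck had no such probe set and was not analysed here.

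The samples were whole blood of adult female first-generation hybrids, 3 from crossing DBA/2J with FVB/NJ (DBAxFVB F1) and 2 from crossing AKR/J with FVB/NJ (AKRxFVB F1), with 1 array each. All animals therefore share an FVB/NJ parent, and the crosses differ in the other parent. The labels name no treatment beyond Avertin anaesthesia before cervical dislocation, and the blood came from cardiac puncture. The question behind the arrays was which genes the genotypes express at different basal levels in blood. Nothing in the labels states that the samples were separate animals, so p-values below measure only how far these samples scatter, and that scatter may be technical.

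A T cell recognises antigen with a receptor whose variable chains have no signalling part of their own. The CD3 chains and the zeta chain, encoded by Cd3d, Cd3e, Cd3g and Cd247, sit beside them in the membrane and carry tyrosine motifs that the kinase LCK phosphorylates. The kinase ZAP-70 then binds these motifs and phosphorylates the adaptor LAT, from which calcium and Ras signals spread. CD2, CD5 and Thy-1 are surface proteins of T cells that strengthen adhesion, dampen receptor signals or serve as lineage markers. In blood they mark circulating T cells, which are a minority among red cells, platelets, granulocytes and B cells. In a bulk blood sample, fewer cells of a type and less RNA per cell cannot be told apart.

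The CD3 genes are shown by sequence because they are direct neighbours. Their estimated differences between the crosses ran from -1.38 for Cd3d to -0.31 for Cd3e. The 95% intervals overlapped, and whether the genes differed from each other in this was not tested. In the RefSeq gene table of assembly GRCm38.p6, 0 genes lie between Cd3g and Cd3d and 0 between Cd3d and Cd3e. The 250 bases before the annotated start of each gene are given 5′ to 3′ on the gene's strand. These sequences are those of the reference assembly and were not read from the animals studied, so they show no difference between the crosses. They lie at chr9:44981536-44981785 (plus strand) for Cd3d, chr9:45009612-45009861 (minus strand) for Cd3e and chr9:44980432-44980681 (minus strand) for Cd3g. Capitals mark matches on either strand to AGGAAG, a common form of the ETS factor motif, and to CTTTGA, a form of the TCF/LEF motif.
Cd3d: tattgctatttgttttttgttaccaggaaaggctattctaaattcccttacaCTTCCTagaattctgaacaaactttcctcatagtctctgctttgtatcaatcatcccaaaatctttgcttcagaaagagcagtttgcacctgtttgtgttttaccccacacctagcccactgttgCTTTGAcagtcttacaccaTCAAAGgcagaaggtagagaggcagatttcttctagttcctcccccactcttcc
Cd3e: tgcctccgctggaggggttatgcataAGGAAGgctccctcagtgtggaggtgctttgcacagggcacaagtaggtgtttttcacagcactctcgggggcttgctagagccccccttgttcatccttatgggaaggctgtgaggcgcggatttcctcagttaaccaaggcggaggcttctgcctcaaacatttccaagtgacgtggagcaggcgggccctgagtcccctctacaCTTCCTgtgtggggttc
Cd3g: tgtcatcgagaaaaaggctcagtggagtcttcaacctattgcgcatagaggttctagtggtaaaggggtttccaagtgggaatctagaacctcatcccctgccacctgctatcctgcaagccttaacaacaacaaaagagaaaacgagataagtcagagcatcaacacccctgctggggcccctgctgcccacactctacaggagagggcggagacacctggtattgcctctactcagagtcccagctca
The Cd3d window held 1 ETS match and 2 TCF/LEF matches, the Cd3e window 2 ETS matches and the Cd3g window 0 of either. For comparison, 29.5% of the 32851 promoter windows of the same length in the RefSeq table held the ETS letters and 13.8% held the TCF/LEF letters. The E-box, CANNTG, was found 1 time each in the Cd3d and Cd3e windows and 3 times in that of Cd3g, against 66.2% of all windows with at least 1. The letters TGTGGT of the RUNX motif and TATAAA of the TATA box were in none of the 3 windows, against 14.05% and 12.4% of all windows. No match overlapped another in these 3 windows. A match is a description of letters, not a bound site.

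Values are log2 expression values as the authors deposited them. Half-detection limits are not stated for them, and the array medians ran from 2.49 to 2.54. Of the 14 probe sets, 11 had a mean over the 5 arrays at or above 2.51, the median over all non-control probe sets, and were tested. The other 3 all belonged to Cd247. Among arrays, DBAxFVB F1 array 3 stood apart: its 18 hybridisation controls, labelled transcripts added to the sample, had a median of 7.99, against 10.01 to 10.12 on the other 4. Its 3-prime minus 5-prime difference for Gapdh, a sign of RNA quality, was 1.33, against 0.58 to 1.04 on the others. For Actb it was 1.32, close to the 1.22 of AKRxFVB F1 array 1. For both genes, both AKRxFVB F1 arrays also lay above DBAxFVB F1 arrays 1 and 2, so this measure was not even between the crosses. Some red cell and platelet genes were bright in these samples, with Alas2 of haem synthesis at a mean of 13.53 and the platelet chemokine gene Ppbp at 10.76. Other listed markers of these cells were dimmer, down to 2.56 for Hba-a1 of red cells and 3.52 for Gp6 of platelets.

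No probe set of the 10 genes passed the test between the crosses, and neither did any other: 0 of 22519 probe sets, or 0%, had a limma adjusted p below 0.05. The differences covered a wide range. Cd3d, Cd2 and Thy1 had DBAxFVB F1 means 0.71 to 1.38 lower on the log2 scale, each with an unadjusted p below 0.05. Cd3e, Cd3g and Cd5 had differences of -0.38 to -0.23. Cd247, Lat and Zap70 differed by 0.01 to 0.22, with DBAxFVB F1 higher, on their 5 tested probe sets, of which those of Cd247 and the brightest of Zap70 turned below 0 after median centring. At an unadjusted p below 0.05 and lower in DBAxFVB F1 there were 3 of the 11 tested probe sets, against a background of 6.79% of all probe sets. On the higher side there were 0 of 11, against 3.59%. The members and lists were chosen with earlier results of these data known. Such counts, here and below, are therefore description and not a test of the list. Over all probe sets, the lower side made up 65.4% of those at an unadjusted p below 0.05, against 77.0% with arrays centred on their medians and 78.8% with cyclic loess.

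**Figure D1:**
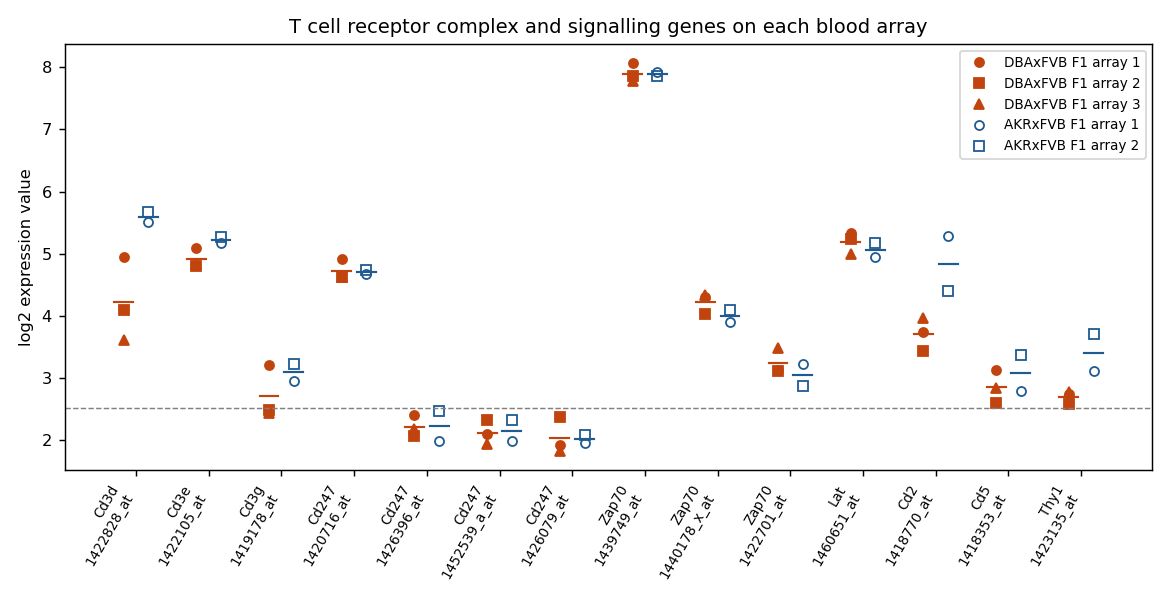
Log2 expression of each of the 14 probe sets on the 3 DBAxFVB F1 arrays (filled) and the 2 AKRxFVB F1 arrays (open); short lines are group means and the dashed line is the filter at 2.51. The groups are apart for Cd3d, Cd2 and Thy1, narrowly apart for Cd3e, and overlap for the other probe sets.

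Cd3d encodes the delta chain of CD3. It read 4.94, 4.09 and 3.61 on the DBAxFVB F1 arrays, against 5.51 and 5.68 on the AKRxFVB F1 arrays. Every DBAxFVB F1 array lay below both AKRxFVB F1 arrays, and the DBAxFVB F1 arrays were spread far wider than the AKRxFVB F1 pair. The means were 4.22 ± 0.68 (SD, n = 3) in DBAxFVB F1 and 5.59 ± 0.12 (SD, n = 2) in AKRxFVB F1. The difference was -1.38 ± 0.38 (limma SE), or 38.5% of the AKRxFVB F1 level with a 95% interval of 0.209 to 0.709 for the ratio (limma adjusted p = 0.268). It was the lowest difference of the 11 probe sets. Of the 2746 probe sets with means between 4 and 5, 1.38% had a lower difference.

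Cd3e encodes the epsilon chain, which pairs with both the delta and the gamma chain. It read 5.09, 4.80 and 4.84 on the DBAxFVB F1 arrays and 5.18 and 5.27 on the AKRxFVB F1 arrays. The groups did not overlap, but the gap between the nearest arrays was small next to the spread within DBAxFVB F1. The difference was -0.31 ± 0.23 (SE), with a limma adjusted p of 0.674. After quantile normalization it was -0.15.

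Cd3g, the gamma chain gene, read 3.21, 2.48 and 2.44 on the DBAxFVB F1 arrays, against 2.95 and 3.23 on the AKRxFVB F1 arrays. DBAxFVB F1 array 1 sat among the AKRxFVB F1 arrays, while arrays 2 and 3 sat near the array medians. The difference was -0.38 ± 0.25 (SE), with a limma adjusted p of 0.636, and it was -0.63 without DBAxFVB F1 array 1 and -0.24 without either DBAxFVB F1 array 3 or AKRxFVB F1 array 2. Cd3d showed the same order within DBAxFVB F1, with array 1 highest and array 3 lowest.

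Cd247 encodes the zeta chain, which also serves activating receptors of natural killer cells. Its bright probe set, 1420716_at, read 4.91, 4.62 and 4.62 on the DBAxFVB F1 arrays and 4.68 and 4.74 on the AKRxFVB F1 arrays. The AKRxFVB F1 values lay inside the DBAxFVB F1 range. The difference was 0.01 ± 0.22 (SE) with a 95% interval of -0.50 to 0.53, and its sign turned after median centring, at -0.03. The 3 untested probe sets of Cd247 had means between 2.03 and 2.22, below the array medians, so they carry little information on the gene. Their differences were between -0.03 and 0.02.

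The CD3 and zeta probe sets were also set against each other within arrays. Within each array, the Cd3d value minus the Cd3e value was -0.15, -0.70 and -1.23 in DBAxFVB F1, against 0.33 and 0.41 in AKRxFVB F1. Cd3d minus Cd247 was 0.04, -0.53 and -1.01 in DBAxFVB F1, against 0.83 and 0.94 in AKRxFVB F1. Such a difference of probe sets compares changes across arrays and says nothing of which gene is more abundant. In both contrasts all DBAxFVB F1 arrays lay below both AKRxFVB F1 arrays. Against Cd3g, Cd3d was 1.73, 1.61 and 1.17 in DBAxFVB F1 and 2.56 and 2.45 in AKRxFVB F1. These 3 contrasts were chosen after the values were seen and are given without a test.

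**Figure D2:**
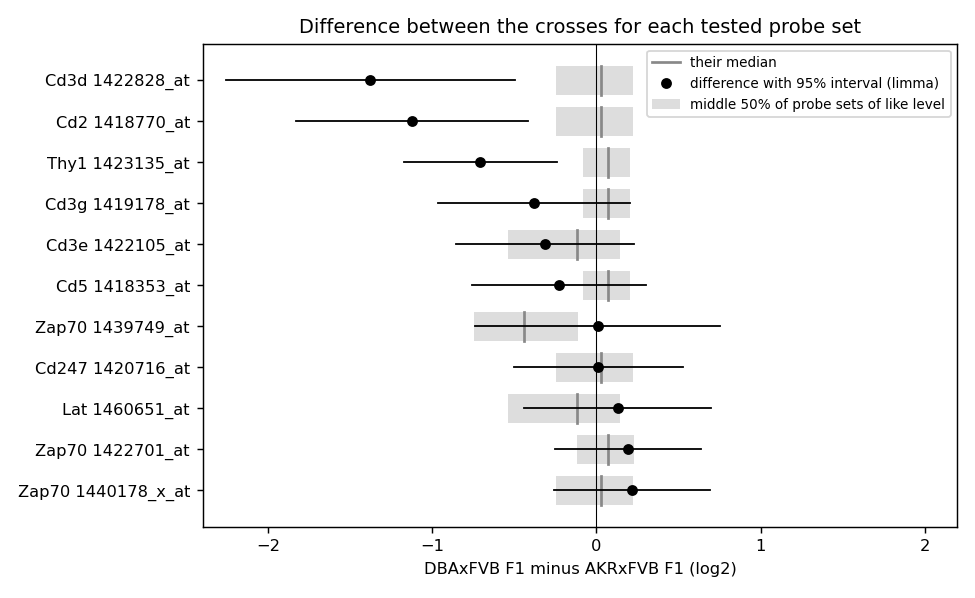
Difference between the crosses (DBAxFVB F1 minus AKRxFVB F1, log2) for each of the 11 tested probe sets, with 95% intervals from limma. Grey bars give the middle 50% and grey ticks the median of all probe sets in the same level range; Cd3d, Cd2, Thy1, Cd3g and Cd5 lie left of their bars, and the bright Zap70 probe set lies right of its bar.

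Zap70 encodes the kinase that binds the phosphorylated CD3 and zeta chains. Its 3 probe sets differed widely in brightness, with means of 7.89 for 1439749_at, 4.13 for 1440178_x_at and 3.16 for 1422701_at. The annotation used here gives no accession for the brightest, and the suffix of 1440178_x_at marks probes that can bind other transcripts, so which of them best reads the gene was not tested. Their differences were 0.01 ± 0.32, 0.22 ± 0.20 and 0.19 ± 0.19 (SE), with limma adjusted p from 0.734 to 0.996.

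On the DBAxFVB F1 arrays 1439749_at read 8.06, 7.85 and 7.78, against 7.93 and 7.85 on the AKRxFVB F1 arrays. The groups overlapped, and all 5 arrays lay close together. Bright probe sets as a whole did not: of the 828 with means between 6 and 8, 80.3% were lower in DBAxFVB F1, with a median difference of -0.44. Their median deviation from the 5-array mean was 0.04, 0.11 and -0.65 in DBAxFVB F1, against 0.09 and 0.36 in AKRxFVB F1. Array 3 of DBAxFVB F1, the array with dim controls, thus stood apart from the other arrays of its cross. Relative to these 828 probe sets, the Zap70 difference was high, so that comparison rests in large part on 1 array. After quantile normalization the Zap70 difference became 0.58 and after cyclic loess normalization 0.38. It was -0.04 after median centring, so its direction depends on the scaling. The level of 1422701_at was 3.13, 3.11 and 3.48 in DBAxFVB F1 and 3.23 and 2.87 in AKRxFVB F1, again with overlap.

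Lat encodes the membrane adaptor on which ZAP-70 acts, and platelets use it too, downstream of their collagen receptor. It read 5.33, 5.24 and 4.99 on the DBAxFVB F1 arrays, against 4.94 and 5.18 on the AKRxFVB F1 arrays. DBAxFVB F1 arrays 1 and 2 were the highest of the 5 and array 3 lay between the AKRxFVB F1 arrays. The difference was 0.13 ± 0.25 (SE), with a limma adjusted p of 0.874. It was 0.29 after quantile normalization, where the groups no longer overlapped. As a sum, platelet markers were lowest on DBAxFVB F1 array 3. Their summed linear signal over 6 of 8 listed genes was 3770, 4382 and 1299 in DBAxFVB F1 and 2953 and 5538 in AKRxFVB F1. Not all followed the sum: Gp6 was highest on DBAxFVB F1 array 3, at 4.13, and Treml1 was lowest on AKRxFVB F1 array 1. Bright probe sets of any kind were also low on DBAxFVB F1 array 3, with a median deviation of -0.91 at means between 8 and 10. The part of platelets in the Lat values was not tested. Leaving out DBAxFVB F1 array 3 gave a Lat difference of 0.23, and over all such omissions it ranged from 0.01 (without AKRxFVB F1 array 1) to 0.24 (without AKRxFVB F1 array 2).

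Cd2 encodes an adhesion receptor of T and natural killer cells that mouse B cells carry as well. It read 3.75, 3.43 and 3.97 on the DBAxFVB F1 arrays, against 5.29 and 4.40 on the AKRxFVB F1 arrays. The groups did not overlap, and AKRxFVB F1 array 1 was the highest by a wide margin. The means were 3.72 ± 0.27 (SD, n = 3) in DBAxFVB F1 and 4.84 ± 0.63 (SD, n = 2) in AKRxFVB F1. The difference was -1.13 ± 0.30 (SE), 45.8% of the AKRxFVB F1 level with a 95% interval of 0.281 to 0.749 for the ratio (limma adjusted p = 0.262). Leaving out AKRxFVB F1 array 1 gave -0.68, and leaving out array 2 gave -1.57.

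As a sum, B cell markers were also highest on AKRxFVB F1 array 1, although Pax5 was highest on DBAxFVB F1 array 1 and Cr2 on AKRxFVB F1 array 2. The summed linear signal of 7 of 8 listed B cell markers was 113 to 182 in DBAxFVB F1, against 224 and 476 in AKRxFVB F1, with the larger value on array 1. None of the 7 had a mean below the filter, and Ms4a1, the gene of CD20, was the brightest of them at a mean of 6.33. Their part in the Cd2 difference was not tested.

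Thy1 encodes the Thy-1 antigen, the classic surface marker of mouse T cells, which some fibroblasts and neurons also carry. It read 2.74, 2.58 and 2.78 on the DBAxFVB F1 arrays, against 3.11 and 3.70 on the AKRxFVB F1 arrays. The groups did not overlap, and the DBAxFVB F1 arrays lay together near the array medians. The difference was -0.71 ± 0.20 (SE), 61.3% of the AKRxFVB F1 level with a 95% interval of 0.443 to 0.847 for the ratio (limma adjusted p = 0.286). Leaving out AKRxFVB F1 array 2 gave -0.41, and leaving out array 1 gave -1.002. Of 9554 probe sets with means between 2.5 and 3, 1.19% had a lower difference. Of 6 fibroblast markers, Col1a1, Col3a1 and Lum had means below the filter, whereas Dcn, Col1a2 and Pdgfra had means of 4.80, 4.08 and 2.96. The summed linear signal of all 6 was 55.8 to 115 in DBAxFVB F1, against 65.5 and 70.2 in AKRxFVB F1. The sum of 115 was on DBAxFVB F1 array 3, where Dcn read 6.05. The part of fibroblasts in the Thy1 values was not tested.

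Cd5, which encodes a receptor that dampens T cell receptor signals and is also found on a subset of B cells, read 3.12, 2.59 and 2.84 on the DBAxFVB F1 arrays. On the AKRxFVB F1 arrays it read 2.79 and 3.37. The groups overlapped, and the AKRxFVB F1 arrays lay as far apart as the DBAxFVB F1 arrays did. The difference was -0.23 ± 0.23 (SE), with a limma adjusted p of 0.745, and its sign turned without AKRxFVB F1 array 2, at 0.06.

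Over the 11 tested probe sets, 6 had a lower mean in DBAxFVB F1, against 43.2% of all probe sets, and the median difference was -0.23, against 0.04 for all. After median centring 8 of the 11 were lower, against 49.8% of all. The arrays of the crosses did not overlap, with DBAxFVB F1 lower, for 4 of the 11 (Cd3d, Cd3e, Cd2 and Thy1), against 12.6% of all probe sets. DBAxFVB F1 was higher without overlap for 0 of the 11, against 16.4%. The 4 lower ones also did not overlap under any of the 3 other normalizations. On the higher side the count became 2 after quantile normalization (Lat and the brightest Zap70 probe set) and 1 after cyclic loess (Lat). The background itself turned with the scaling, to 15.3% lower and 12.4% higher after median centring.

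The genes did not share an order of arrays. With each gene represented by its brightest tested probe set, DBAxFVB F1 array 1 was the highest of its cross for 7 of the 9 genes, the exceptions being Cd2 and Thy1. Within AKRxFVB F1, array 2 was the higher for 7 of 9, the exceptions being Zap70 and Cd2. On these probe sets, Cd2 was thus the gene that ran against the others in both crosses. The dimmer Zap70 probe set 1422701_at had the same highest arrays as Cd2, DBAxFVB F1 array 3 and AKRxFVB F1 array 1. As a list, the median deviation from the 5-array mean was 0.18, -0.35 and -0.20 in DBAxFVB F1, against 0.09 and 0.23 in AKRxFVB F1. On this measure DBAxFVB F1 array 1 lay between the AKRxFVB F1 arrays, so the lists of the crosses overlapped.

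**Figure D3:**
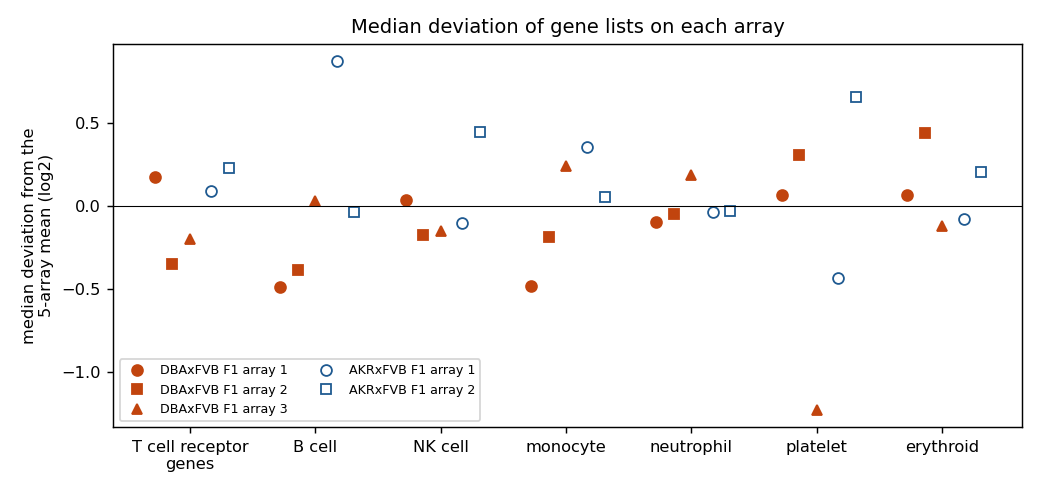
Median deviation from the 5-array mean (log2) of the tested genes of each list on each array, for the T cell receptor genes and marker lists of 6 other cell types. The T cell receptor genes were lowest on DBAxFVB F1 array 2 at -0.35, whereas B cell markers peaked on AKRxFVB F1 array 1 at 0.87 and platelet markers were lowest on DBAxFVB F1 array 3 at -1.23.

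Other cells were read from the same arrays. Natural killer cells, which use the zeta chain, Lat and Zap70 too, had summed marker signals of 41.4 to 49.2 in DBAxFVB F1 and 42.8 and 62.8 in AKRxFVB F1 over 7 of 8 listed genes. Of these, Ncr1, Klrd1 and Eomes had means below the filter. Monocyte markers summed to 423 to 826 in DBAxFVB F1, against 740 and 1025 in AKRxFVB F1 over 7 of 8 genes, with Fcgr1 below the filter. These markers disagreed: of the 6 tested, 4 were lower and 2 higher in DBAxFVB F1, with differences from -1.49 to 0.69. Their part in the values of the T cell receptor genes was not tested. Without DBAxFVB F1 array 3, the array with dim controls, the differences were -1.08 for Cd3d, -1.25 for Cd2 and -0.75 for Thy1, and the smallest limma adjusted p among the 11 was 0.171.

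The genes around the receptor were read from 6 lists of 84 genes, of which 65 had a probe set with 1 symbol and 53 were tested. None passed the test in either direction. Of the 53, 38 were lower and 15 higher in DBAxFVB F1, against 43.2% of all probe sets lower as deposited and 49.8% after median centring. The median difference was -0.06, against 0.04 for all. At an unadjusted p below 0.05 there were 5 lower and 0 higher, where the shares over all probe sets were 6.79% and 3.59%, so the lower count was near the background. The 1 matched entry for the receptor's variable chains, Tcra, had a mean below the filter.

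Co-receptors and co-stimulatory genes differed little, with a median of -0.02 over 12 genes and 0 at an unadjusted p below 0.05. Cd4, the co-receptor for class II molecules, read 4.15, 3.75 and 3.73 on the DBAxFVB F1 arrays, against 3.83 and 3.95 on the AKRxFVB F1 arrays. Its groups overlapped, and the difference was -0.01 ± 0.21 (SE). Cd8a, the class I co-receptor, differed by 0.20 ± 0.29 on its brightest probe set, and all 5 of its probe sets had differences between 0.04 and 0.36. Cd8b1, its partner chain, differed by -0.08 ± 0.14. The co-stimulatory receptor gene Cd28 differed by -0.44 ± 0.28 and the surface receptor gene Cd6 by 0.14 ± 0.19.

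Among kinases and phosphatases, 7 of 9 were lower, with a median of -0.31. Ptprc encodes CD45, the phosphatase of all white cells that keeps LCK active. It read 7.24, 6.26 and 6.65 in DBAxFVB F1, against 8.34 and 8.09 in AKRxFVB F1, without overlap. The difference was -1.51 ± 0.38 (SE), with a limma adjusted p of 0.245. The Tec family kinase gene Txk differed by 0.32 ± 0.16, and Ubash3b, a phosphatase that acts on receptor signals, by -0.52 ± 0.29. The 3 tested probe sets of Ubash3b disagreed, with differences from -0.52 to 0.09.

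Adaptors and downstream genes lay closer to 0. Of 12 adaptors 9 were lower, with a median of -0.05. The Src-like adaptor gene Sla differed by -0.40 ± 0.21 (SE), Fyb by -0.62 ± 0.53 and Nck1 by 0.18 ± 0.15. The 4 tested probe sets of Sla disagreed, with differences from -0.40 to 0.12. The untested, dim probe sets of Nck1 differed by -0.14 and -0.11. Of 13 downstream genes 9 were lower, with a median of -0.14. Rasgrp1, which activates Ras after receptor engagement, read 3.51, 2.43 and 3.19 in DBAxFVB F1, against 4.72 and 3.91 in AKRxFVB F1. Its groups did not overlap and its difference was -1.27 ± 0.36, with a limma adjusted p of 0.280. Its 3 tested probe sets disagreed, with differences from -1.27 to 0.20. Nfatc3, a calcium-regulated transcription factor gene, differed by -0.25 ± 0.16 and the diacylglycerol kinase gene Dgkz by -0.57 ± 0.39.

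**Figure D4:**
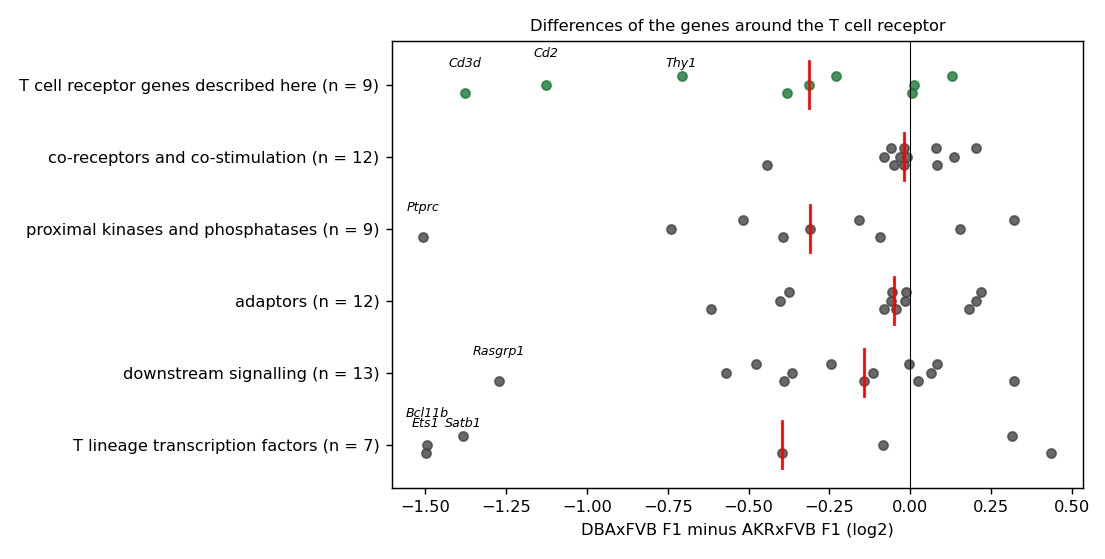
Differences between the crosses (DBAxFVB F1 minus AKRxFVB F1, log2) of the tested genes, 1 point per gene, with red ticks at list medians and names for genes with an unadjusted p below 0.05. Named points lie left of 0, and the co-receptor list lies around 0 with a median of -0.02.

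T lineage transcription factors had 5 of 7 tested genes lower, with a median of -0.40, and 3 of them at an unadjusted p below 0.05. Over all probe sets, 43.2% were lower and 6.79% were lower at that p. Ets1, an ETS factor of lymphocytes, read 6.46, 6.24 and 6.11 in DBAxFVB F1, against 7.95 and 7.58 in AKRxFVB F1. The groups were apart by more than the spread within either, and the difference was -1.50 ± 0.31 (SE), with a limma adjusted p of 0.177. All 4 of its probe sets were lower, by differences from -1.50 to -0.14.

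Bcl11b, which fixes the T cell fate, read 5.17, 4.09 and 3.15 in DBAxFVB F1, against 4.95 and 6.31 in AKRxFVB F1. Satb1, a chromatin organiser of T cells, read 4.37, 2.95 and 2.63 in DBAxFVB F1, against 3.99 and 5.42 in AKRxFVB F1. For both genes the groups overlapped, DBAxFVB F1 array 1 was the highest of its cross and AKRxFVB F1 array 2 the highest of all. The differences were -1.50 ± 0.60 and -1.38 ± 0.57 (SE), with limma adjusted p of 0.446 and 0.459. Their probe sets disagreed in size: the 4 tested of Bcl11b ranged from -1.50 to -0.05 and the 4 tested of Satb1 from -1.64 to -0.01.

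**Figure D5:**
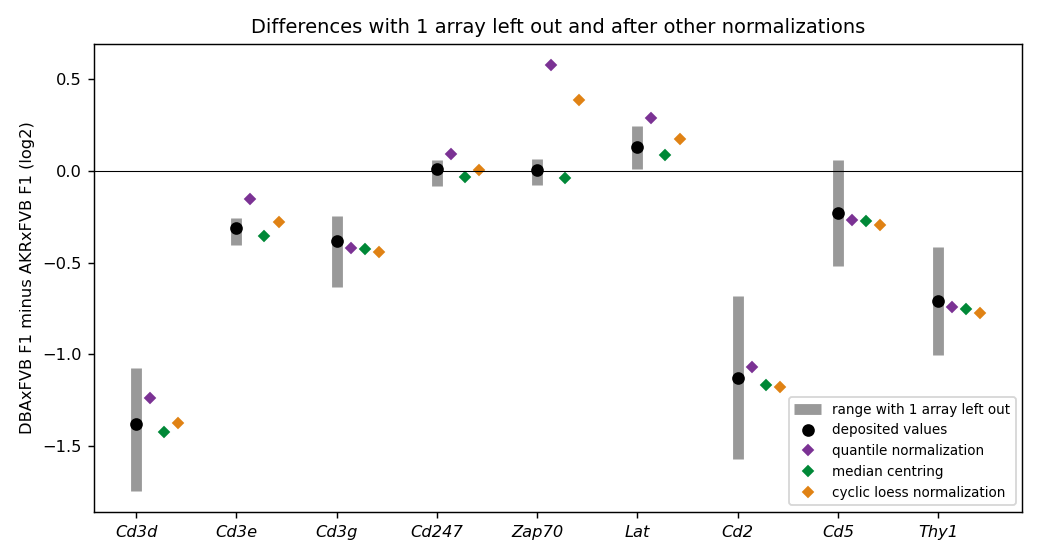
Difference between the crosses (DBAxFVB F1 minus AKRxFVB F1, log2) for each gene's brightest tested probe set: deposited values (black), the range with 1 array left out (grey) and 3 other normalizations (diamonds). Cd3d stays between -1.74 and -1.08, Cd2 between -1.57 and -0.68 and Thy1 between -1.002 and -0.41 with 1 array left out, while Zap70 moves to 0.58 after quantile normalization.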

How the data were processed

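Total RNA of whole blood was amplified with a kit of 2 cycles, labelled with biotin and hybridised to Affymetrix arrays, per the labels' protocols. Each array's probe sets came with 1 normalized value, deposited by the authors and taken here as log2 expression because the values ran from 1.29 to 14.8; no label states the base. MAS5 and RMA are named, without versions, per the submitters' processing notes, and which of the 2 gave these values is not given in the sources used here. Background correction is thus unknown, and the fold changes of dim probe sets may be compressed.

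The 64 control probe sets were left out. In the platform annotation 34958 probe sets had 1 symbol, 932 had several and 9211 had none; all 9 member genes had the same symbol in the RefSeq table of GRCm38.p6. Probe sets with a mean at or above the median, 2.51, were fitted together with limma 3.58.1 in R 4.3.3 (lmFit, eBayes with a variance trend), with a single term for the cross (3 residual degrees of freedom), a two-sided moderated test and Benjamini-Hochberg adjustment over all 22519. The threshold was an adjusted p below 0.05. An exact permutation test of 3 arrays against 2 cannot give a p under 0.1, and the number of arrays limits the precision. The fit was tested on simulated data with known changes.

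Samples were grouped by the cross in their source label. A gene was represented by its brightest tested probe set; named were all member genes and, per pathway list, up to 3 genes with the smallest p plus the co-receptors. The members and lists were chosen with earlier results of these data known. Promoters came from RefSeq, GRCm38.p6, for 8 of the 10 genes. Alternatives were 3 normalizations, 2 filters, other variance models, weights per array, a block for the replicate number, and leaving out each array. Python 3.11.15, pandas 2.3.3 and matplotlib 3.10.9 were used for tables and plots.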

Additional observations from a re-analysis of the deposited data

How the results depend on the processing

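No alternative brought a gene of the list past the threshold, and 0 probe sets of the whole table passed in any; with the deposited values 0 also passed at an adjusted p below 0.1. At an unadjusted p below 0.05 the deposited values gave 1529 lower and 808 higher, against 2318 and 1562 without a filter and 961 and 310 without AKRxFVB F1 array 1. Of 125 values of single genes under an alternative, 117 kept their direction. Cd3d, Cd3e, Cd3g, Cd2, Thy1 and Lat kept theirs in every setting in which they were tested. The filters and the other variance models left each gene's difference as it was, so they could not turn a direction. For Cd3d, Cd3e, Cd2 and Thy1, whose arrays did not overlap between the crosses, leaving out or weighting arrays could not turn it either. The block for the replicate number gave the same differences as leaving out DBAxFVB F1 array 3, so it added no separate check. Cd247 turned to -0.0319 after median centring and to -0.0019 as the mean of its 4 probe sets, and Zap70 to -0.0363 after median centring. With 1 array left out, Cd247 ranged from -0.0838 to 0.0588, Zap70 from -0.0755 to 0.0676 and Cd5 from -0.52 to 0.0610. In the same settings the median over the tested probe sets ranged from -0.36 to -0.0322 and that of the pathway lists from -0.17 to 0.0026. Where AKRxFVB F1 kept 1 array, that array was assumed to vary like the others. The median over the 11 probe sets was -0.0216 without a filter, where 3 dim Cd247 probe sets entered, and 0.0089 with a filter at the 75th percentile, which left 8 probe sets, 3 of them lower; there Cd3g, Cd5 and Thy1 were no longer tested. An alternative planned in case the values were linear was not run, since their range led to their being taken as log2.

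With the replicate number as a block, the differences were -1.08 for Cd3d, -1.25 for Cd2 and -0.75 for Thy1, the same as without DBAxFVB F1 array 3, whose number has no partner. The smallest limma adjusted p among the 11 was 0.0879, for Cd2, and 0 probe sets passed. The deviations of same-numbered arrays correlated at -0.26 for number 1 and 0.17 for number 2. With only these 2 pairs, the values cannot tell whether same-numbered samples share more than a number. Cd3g, Cd5 and Thy1 were dim, with means within 0.5 of the filter level, which limits what their values can show.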

Other observations

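Within the pathway lists, 3 tested genes lay higher on every DBAxFVB F1 array than on both AKRxFVB F1 arrays, and none passed the test. Runx3, a transcription factor gene of cytotoxic T cells, read 3.77, 4.20 and 3.81 in DBAxFVB F1, against 3.35 and 3.62 in AKRxFVB F1, a difference of 0.44 ± 0.21 (SE, limma adjusted p = 0.527). Txk read 2.85, 2.78 and 3.12 in DBAxFVB F1, against 2.58 and 2.60 in AKRxFVB F1. Sla2, an adaptor gene related to Sla, read 3.75, 3.61 and 3.84 in DBAxFVB F1, against 3.46 and 3.60 in AKRxFVB F1. Among all tested probe sets, 16.4% lay higher without overlap. Runx3 and Sla2 are named because of this pattern, after their values were seen.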
